A study of Mus musculus with 12 samples.

Results

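Lipopolysaccharide (LPS) took the RNA of 173 genes in wild-type (WT) mouse peritoneal macrophages down at least 12-fold within 6 h. These genes were chosen by the WT libraries themselves: the mean over the WT libraries kept with PBS had to reach 10 CPM (a gene's count divided by the total of its library and multiplied by 1000000) and to be at least 12 times the mean over the WT libraries with LPS. Of the 16920 genes in the tables, 7811 reached 10 CPM in WT PBS, and the 173 made up 2.21% of those. The median member had 5.0% of its PBS level left, 56 were under 1 CPM with LPS and 18 still held 10 CPM or more. Transcription factors of the resting macrophage, receptors that couple to G proteins, regulators of small GTPases, lysosomal and nutrient-sensing genes and glycan-building enzymes were among them. In the libraries labelled as Ythdf1 knockout (KO), all 173 fell as well, where 41.1% of all genes tested were lower. Of the 173, 163 (94.2%) met the same pair of thresholds there, beside 3.31% of all genes at 10 CPM or more in KO PBS.

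The series held 12 RNA-seq libraries, 3 in each of 4 groups: WT with PBS, WT with LPS, KO label with PBS and KO label with LPS, the LPS given at 1 µg/mL for 6 h. Per the study's methods the mice were on the C57BL/6 background and 6 to 10 weeks old. For recruiting the cells, the series record names starch broth and the methods name thioglycollate. The labels call the samples of a group biological replicates, without saying which mouse gave which library, so p-values measure only the spread between these samples.

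Total counts lay between 21546274 and 22017005 per library, so that 3 counts, used here as the floor, equalled 0.136 to 0.139 CPM. The libraries expressed macrophage markers strongly: the summed level of 10 such genes was 22000 to 22900 CPM in WT PBS, 14300 to 16000 in WT LPS, 24000 to 24300 in KO PBS and 14000 to 15100 in KO LPS, and no marker of any listed cell type was a member. Ythdf1 RNA was not lost from the KO-labelled libraries (74.96 ± 1.84 CPM against 55.1 ± 1.93 in WT under PBS, and 149 ± 3.88 against 161 ± 4.95 under LPS, SD, n = 3), hence the wording "KO label". Under PBS it was higher by 0.40 on the log2 scale (edgeR quasi-likelihood test, adjusted p = 0.000133). The study reports genotyping of its CRISPR-made knockout mice and YTHDF1 protein blots in chimeric mice. RNA levels do not measure the protein. Replicate 1 of WT LPS stood apart from replicates 2 and 3. Its mean chi-square per gene against them was 30.7 and 23.9, compared with 2.97 between those 2, and over the members alone 3.9 and 2.81 compared with 1.32. Replicates 2 and 3 of KO LPS also differed (15.6, against 7.0 and 5.52 for the other pairs of that group), and over the members pairs of PBS libraries reached 3.67 in WT and 3.45 by the KO label. Without replicate 1 of WT LPS 179 genes met the rule, 170 of them members.

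LPS is sensed by Toll-like receptor 4 on macrophages, and the cell then builds up RNA of cytokines and other inflammatory genes while the programme of the resting cell recedes. The level of an RNA reflects both its synthesis and its decay, which these libraries do not separate. YTHDF1 is a reader protein of the m6A mark on RNA and is known for promoting translation of marked messages. In bulk RNA, fewer cells holding an RNA and less of it per cell cannot be told apart.

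Among the 7811 genes at 10 CPM or more in WT PBS, 2687 were at least 2 times lower with LPS and 678 at least 2 times higher, as the distribution of their PBS to LPS ratios shows. The members formed the far end of the falling side. Their ratios ran from 12.01 to 160, with a median of -4.32 for LPS over PBS on the log2 scale. A ratio of 20 or more was reached by 87 members, of 50 or more by 19 and of 100 or more by 6. With LPS, 56 members were under 1 CPM in WT, and in no member did a PBS library overlap an LPS library. Together they took 1.41% to 1.42% of all counts in WT PBS and 0.0635% to 0.075% in WT LPS, a 20.9-fold fall of their summed CPM. These WT values chose the genes and are given without a test.

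**Figure D1:**
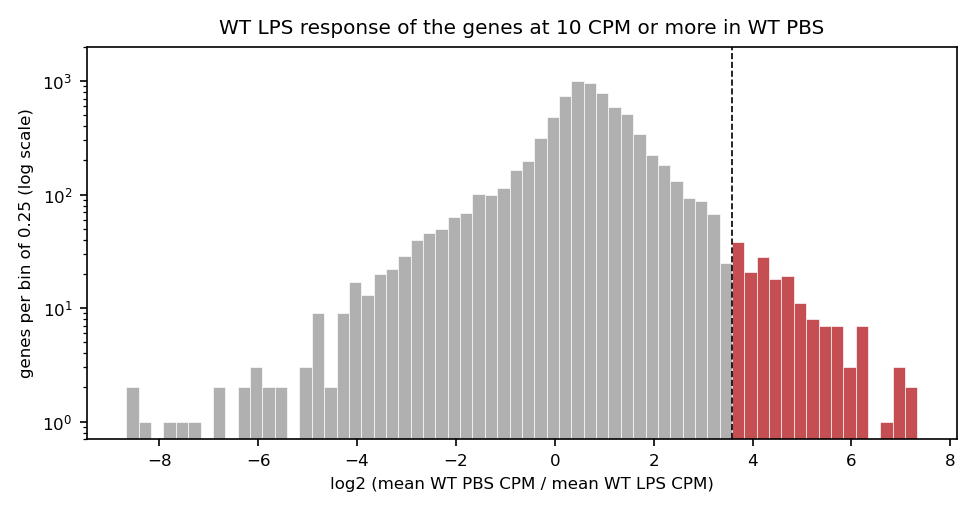
Distribution of the log2 ratio of mean WT PBS CPM to mean WT LPS CPM over the 7811 genes at 10 CPM or more in WT PBS; bars count genes per bin of 0.25 on a log axis, the dashed line is the ratio of 12 and the 173 members are in red. The members form the right-hand tail, beyond the 2514 genes with ratios of 2 to 12.

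The edge of the group was not a natural gap. Just inside the ratio of 12 lay Ppfia4, which encodes a liprin scaffold protein (12.01), Thbd, which encodes the anticoagulant receptor thrombomodulin (12.12), and Tmem71 (12.12). Just outside were Ptpn22, a phosphatase that restrains immune receptor signalling (11.97), Dhcr7, the last enzyme of cholesterol synthesis (11.91), and Arhgef18, a GTPase exchange factor (11.76). The number of members also depends on how libraries are scaled. With CPM on library sizes scaled by the trimmed mean of M values (TMM), 90 genes met the rule, all of them members, and scaling by column totals alone put the median of all genes tested at -0.71 with LPS in WT on the log2 scale, against -0.05 after TMM. CPM ratios below are therefore further from 1 than the log2 fold changes of the edgeR fit, which used TMM.

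Tcp11l2 had the highest ratio as measured, from a low base. Its CPM was 15.8, 14.1 and 13.8 in WT PBS and 0.136, 0.0465 and 0.0911 in WT LPS, the latter being 6 counts over 3 libraries. The ratio of 160 therefore has a counting interval of 73.1 to 436 (exact, 95%), which covers counting error only. With the LPS mean set to the floor the ratio was 106, below those of Arhgap19, Lpar5, Tmem273 and Lpin1. Arhgap19, a GTPase-activating protein, held 130, 138 and 133 CPM in WT PBS and 0.873, 0.551 and 1.44 in WT LPS, a ratio of 140. Its 3 LPS libraries were far below every PBS library. Lpar5, a receptor of the lipid mediator lysophosphatidic acid, went from 40.9, 39.9 and 39.2 to 0.327, 0.331 and 0.316 CPM, a ratio of 123. Lpin1 encodes lipin 1, a phosphatidate phosphatase of glycerolipid synthesis and a nuclear co-regulator. It measured 42.2, 39.2 and 42.6 CPM with PBS and 0.4996, 0.322 and 0.228 with LPS, a ratio of 118. The membrane protein gene Tmem273 (ratio 122), the glycosyltransferase gene Galnt9 (103), the uncharacterised 6430548M08Rik (78.3) and Sesn1, which encodes the leucine sensor sestrin 1 (78.3), completed the 8 largest ratios.

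The most abundant members at rest fell less steeply in ratio but lost more RNA. Cebpa, the C/EBPα transcription factor that sets up the myeloid programme, held 474, 488 and 468 CPM in WT PBS and 10.5, 8.42 and 10.6 in WT LPS, a ratio of 48.5. Pdxk, which makes the active form of vitamin B6, went from 438, 428 and 461 to 18.2, 13.5 and 15.7 CPM, and the focal adhesion gene Tns1 from 442, 412 and 435 to 11.2, 6.76 and 6.42. The high Tns1 value among the LPS libraries was that of replicate 1. Cerk (ceramide kinase), Slc43a2 (an amino acid transporter), Bhlhe40 (a repressor of the basic helix-loop-helix family), Rab7b (a GTPase of late endosomal traffic) and Mknk2 (a kinase of the translation factor eIF4E) held 357 to 428 CPM in WT PBS and 9.12 to 25.2 in WT LPS. Divided by transcript length, Cebpa stood highest of all members at rest (182 CPM per kb) ahead of Bhlhe40 (126).

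**Figure D2:**
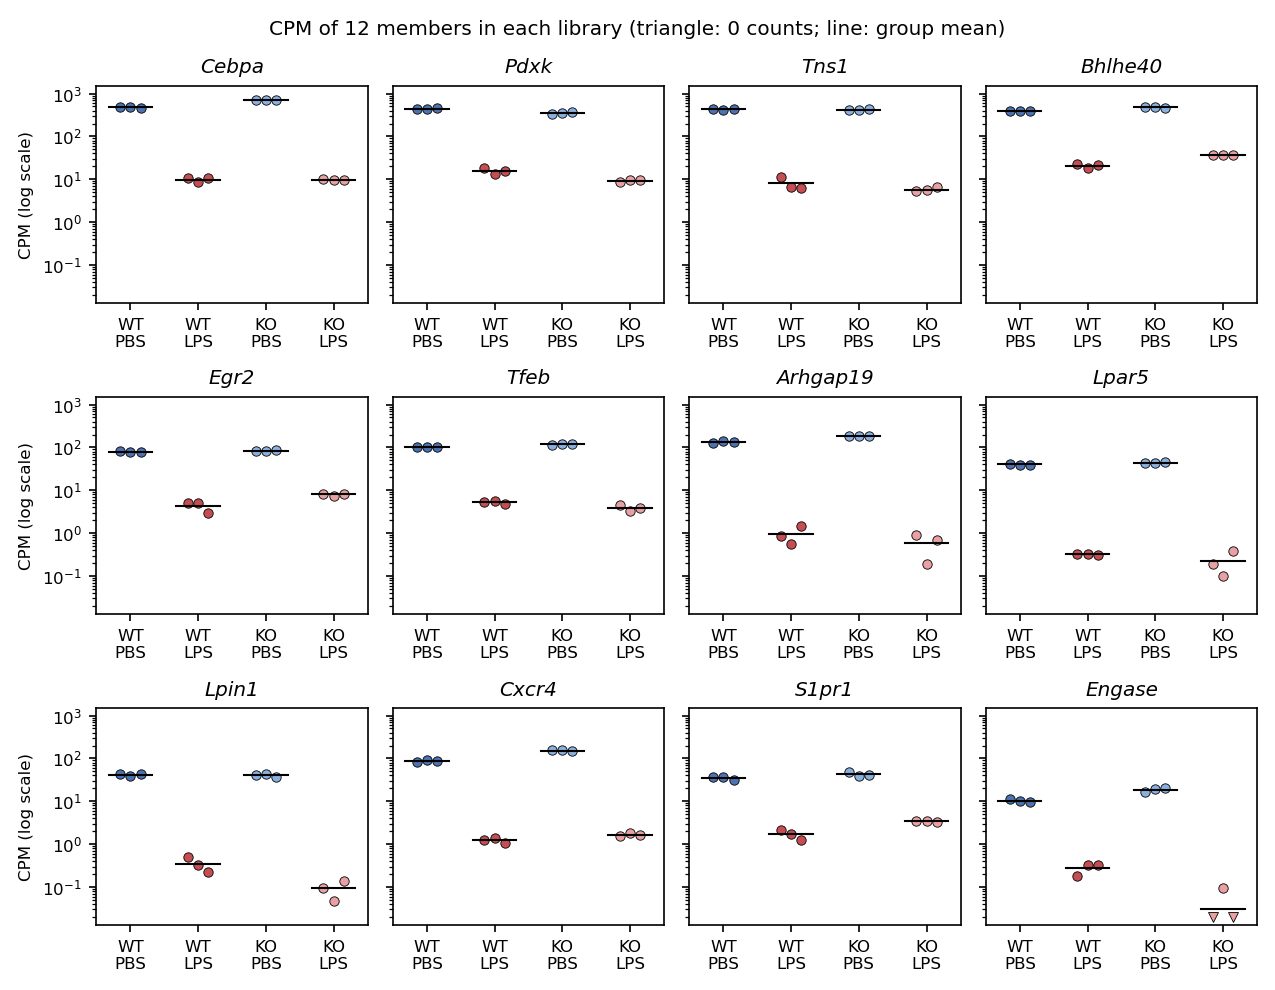
CPM on a log axis of 12 members in each of the 12 libraries; points are libraries, lines are group means and triangles are libraries with 0 counts, drawn at the foot of the axis. All LPS libraries lie below all PBS libraries in both genotype labels, and Bhlhe40, Egr2 and S1pr1 keep a higher LPS level by the KO label than in WT.

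By function, 128 of the 173 could be placed in 13 groups from general knowledge, a grouping made after the members were known, and 45 were left ungrouped. Members outside the naming rule are named for their function, after their values were seen. Group medians of the WT ratio lay between 16.01 and 28.1, and the ranges of all groups overlapped.

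Transcription and chromatin was the largest group, with 23 members and WT ratios of 12.4 to 75.5. It held Cebpa, the lipid-sensing nuclear receptor gene Pparg (ratio 13.8), Egr2, an early growth response factor of macrophages (18.5), Bhlhe40 (19.1), Tfeb, the master regulator of lysosome genes (19.4), Foxo3, a forkhead factor held back by growth signals (15.4), Nfatc2, which calcineurin activates (26.2), and E2f2 of the cell cycle (60.6). Mxd4 (16.6) and Mnt (20.8) encode Max partners that oppose Myc. Nfic, Tef, Lyl1, Hdac5, Tsc22d3, Zfp395, Zfp704, Vgll4, Gtf2i, Samd1, Jade1, Cipc and Cdca7l were the others. Pparg shows the pattern of a member near the threshold: 85.9, 90.1 and 82.9 CPM with PBS and 6.00, 6.16 and 6.56 with LPS in WT. Tfeb measured 104, 101 and 101 CPM with PBS and 5.27, 5.57 and 4.87 with LPS. Both sets of LPS values were tight and far from the PBS values. From a list of 75 myeloid and growth-control factors, 60 reached 10 CPM and 9 of those (15.0%, beside 2.21% of all genes at that level) were members. That list was chosen with earlier results of these data known, so the share is no independent support. Of the 60, 30 were at least 2 times lower with LPS in WT and 10 at least 2 times higher, beside 34.4% and 8.68% of all genes at that level. Mxd1 (12.6 CPM with PBS and 200 with LPS) and Cebpd (12.03 and 121) went the other way.

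Receptors coupled to G proteins, with arrestin, made up 10 members with a median WT ratio of 28.1. Cxcr4, the receptor of the chemokine CXCL12, measured 80.6, 91.7 and 88.8 CPM in WT PBS and 1.23, 1.43 and 1.09 in WT LPS, a ratio of 69.7. S1pr1, which reads sphingosine 1-phosphate, went from 37.6, 37.0 and 30.7 to 2.18, 1.75 and 1.28. Lpar5 and Lpar6 (ratio 13.3) both bind lysophosphatidic acid. P2ry1 (an ADP receptor), Cnr2 (a cannabinoid receptor), Gpr146 (26.0), Gpr157, Mrgpre and Arrb1 (β-arrestin 1) were the others. Of 23 receptors of a list that reached 10 CPM, 5 (21.7%, beside 2.21%) were members. Of these 23, 11 were at least 2 times lower with LPS, beside 34.4% of all genes at that level. The list was chosen with earlier results of these data known, so its share of members is no independent support. None of the 23 was 2 times higher. The tested genes of the list went both ways: in the KO-labelled libraries 22 of its 44 tested genes were higher and 20 lower with LPS, beside 38.8% and 41.1% of all genes tested.

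Small GTPases and their regulators counted 16 members. Beside Arhgap19 they were the regulators Arhgap18 (ratio 25.8), Arhgap39 (14.1), Vav2 (15.4) and Plekhg3 (17.6), the Ras and Rap exchange factors Rasgrp3 and Rapgef6, Rassf3, Rassf5, Tbc1d2, Tbc1d4, Rab3il1 (24.3), Sh2d3c, Cdc42ep3, Arl11 and Rab7b. None of 39 phosphoinositide enzymes and none of 14 genes of cyclic AMP turnover at 10 CPM or more was a member. Beside the 2.21% of all genes at that level, this absence cannot be told from the background in lists this short. At least 2 times lower with LPS in WT were 20 of the 39 and 11 of the 14, beside 34.4% of all genes at that level. Inpp5d, the SHIP1 phosphatase, reached a ratio of 11.4 and Pik3r2 one of 10.4.

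Lysosome and nutrient sensing held 10 members. Sesn1, Castor2 and Rragd act in amino acid signalling to the growth kinase mTORC1, Sgsh, Hyal1, Arsg and Pla2g15 encode lysosomal enzymes, and Tpcn1, Slc46a3 and Slc43a2 encode a channel and transporters. Sesn1 measured 79.8, 78.6 and 77.3 CPM in WT PBS and 0.954, 0.828 and 1.23 in WT LPS. Slc43a2 measured 423, 388 and 402 with PBS and 25.6, 16.3 and 17.7 with LPS, replicate 1 again the highest of the LPS libraries.

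Immune receptors and signalling counted 12 members, among them the paired immunoglobulin-like receptors Cd300a and Cd300lb, Havcr2 (TIM-3), Cd28, Clec2i, Sh2d1b1, Tec, Il16, Naip1, Peli2 and Thbd. Cd28, best known as the co-stimulatory receptor of T cells, was at 44.3 to 49.5 CPM in WT PBS, whereas the defining T cell genes Cd3d, Cd3e and Cd3g were at or under 3 counts. The summed T cell list was 2.91 to 3.76 CPM in WT PBS and 8.13 to 11.4 in WT LPS.

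Metabolic enzymes followed. Glycan synthesis and trimming had 8 members (St6gal1, Galnt9, Gcnt1, B3gnt7, B3gnt8, Lfng, Chst12 and Engase), lipid enzymes and transport 6 (Lpin1, Scd2, Cerk, Abcd2, Dagla and Tmem86a) and intermediary metabolism 9 (Idh1, Pdxk, Pdk2, Gnpda1, Tst, Adi1, Nat8l, Prkag2 and Dio2). Lpin1 was the only member on a list of 14 glycerolipid genes at 10 CPM or more, 7 of which were at least 2 times lower with LPS (34.4% of all genes at that level were). The remaining groups were cytoskeleton and adhesion with 12 members (Tns1, Hip1, Fblim1, Sorbs3, Mtss1, Epb41, Mical1, Nav2, Kifc3, Klc4, Jmy and Stard9), ion channels and transporters with 7 (Kcnk13, Kcnj2, Flvcr1, Slc26a11, Slc45a4, Nipal3 and Cnnm2), ubiquitin ligase components with 6 (Fbxo31, Fbxo32, Klhl21, Rnf144b, Rnf150 and Trim16), protein kinases with 5 (Mknk2, Eef2k, Sbk1, Nuak1 and Aatk) and DNA repair and cell cycle with 4 (among them Chek2, Dna2 and Cdc25b). No gene of an 18-strong list of mitosis and replication genes at 10 CPM or more was a member, and none of 5 BH3-only death genes, beside 2.21% of all genes at that level, which in lists this short is less than 1 gene. At least 2 times lower with LPS in WT were 11 of the 18 and 4 of the 5, beside 34.4% of all genes at that level. Numbered zinc finger genes (2 of 100) and solute carriers (4 of 139) were members at 2.0% and 2.88%, beside the 2.21% of all genes.

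**Figure D3:**
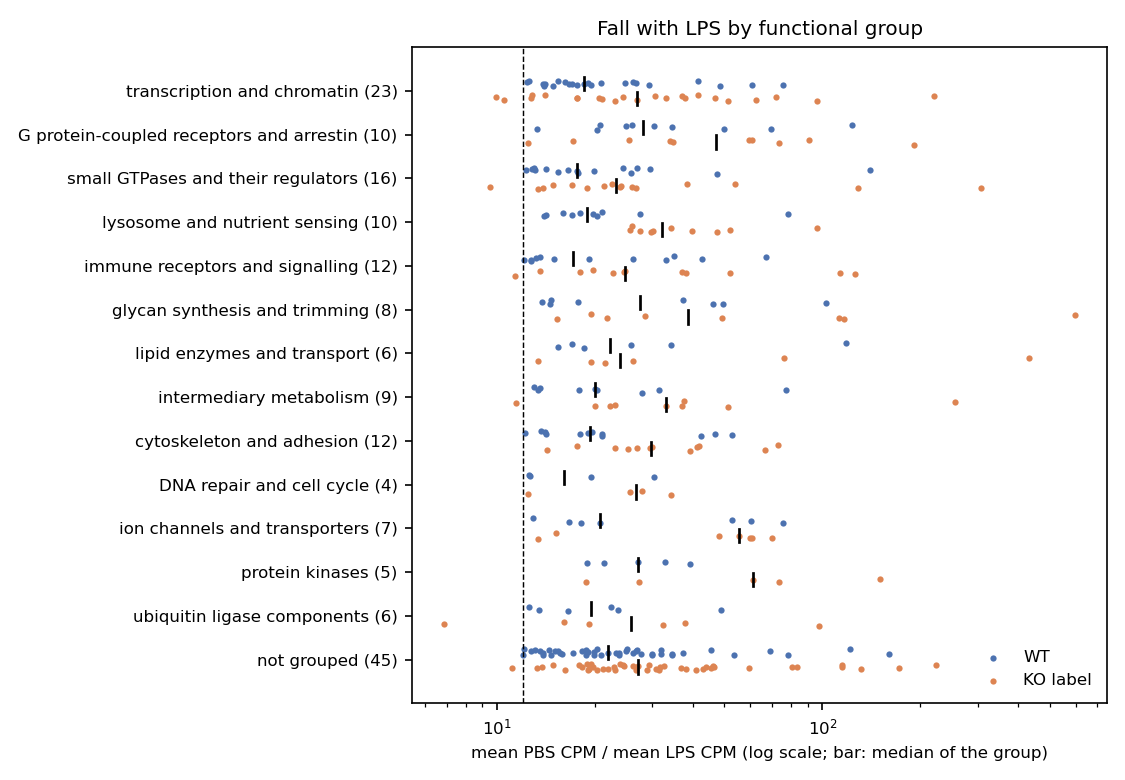
Ratio of mean PBS CPM to mean LPS CPM on a log axis for each member in WT (blue) and by the KO label (orange), by functional group with the number of members; black bars are group medians and the dashed line is the ratio of 12. The median by the KO label lies above the WT median in every group, and the groups overlap.

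The members shared few features that the rule did not use. Their median transcript was longer than that of all genes at 10 CPM or more (3990 against 3120 bases), with fewer exons (8 against 10), a longer gene span (36700 against 24500 bases) and a higher GC content (52.3% against 50.2%). The AU-rich pentamer ATTTA occurred at 0.65 per kb of transcript against 0.797, and GGACT, a frequent form of the m6A motif, at 1.15 against 1.05. In all of these the quartiles of both sets overlapped. Members lay on most chromosomes, and 7 pairs were neighbours within 100 kb, among them Cd300a with Cd300lb, Chst12 with Lfng, and Sgsh with Slc26a11, whose annotated ends overlap. Reads shared between genes leave fractional counts, which were present in at least 10 libraries for 42 members (24.3%, against 24.7% of genes at 10 CPM or more). Arhgap19, Lpar5, Pdxk, Slc43a2, Scd2, Efr3b and Fam198b were among them, so their counts may in part have been split with other genes.

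Promoter windows of 250 bases before to 50 after the start site, from RefSeq on GRCm38.p6, were given for 132 members (203 windows). The palindrome CACGTG, the E-box bound by basic helix-loop-helix factors such as Bhlhe40 and Tfeb and by Max partners such as Mxd4 and Mnt, was in 34 of the 203 (16.7%), against 11.1% of the windows of genes at 10 CPM or more and 7.15% of all 32851. These 34 windows belong to 29 members. Windows of the same gene can overlap, as for Fam214a, Gramd4 and Rab3il1, so a site can be counted more than once. The other motifs were searched on both strands and allowed to overlap one another. TGACGTCA was in 1.48% against 3.05%, TGANTCA in 6.9% against 5.23%, TGCTGA in 15.8% against 14.6% and GAGGAAGT in 3.45% against 3.51%. TTCNNNGAA was in 5.42% against 6.61%, CCAAT in 40.4% against 36.5%, GGGCGG in 62.6% against 65.3% and TATAAA in 6.9% against 6.69%. A loose form of the NF-kB motif was in 65.5% against 68.6%. Only its G and C bases at the ends were fixed, and 50.8% of all windows held it. A match is a string of letters, not a shown binding site, and the shares were not tested. The 29 members with an E-box included 4 of those with the highest resting level or the largest ratio, whose windows are printed 5′ to 3′ on the strand of the gene with CACGTG in capitals. Galnt9 and 6430548M08Rik each have a second window, not printed, without these letters.
6430548M08Rik, chr8:120113902-120114201, plus strand: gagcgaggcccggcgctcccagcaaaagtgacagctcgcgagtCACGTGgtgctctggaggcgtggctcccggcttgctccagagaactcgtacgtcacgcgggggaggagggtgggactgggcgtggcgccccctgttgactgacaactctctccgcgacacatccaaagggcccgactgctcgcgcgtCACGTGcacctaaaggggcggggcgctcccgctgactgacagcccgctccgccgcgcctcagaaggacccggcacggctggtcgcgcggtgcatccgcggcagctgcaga
Pdxk, chr10:78464899-78465198, minus strand: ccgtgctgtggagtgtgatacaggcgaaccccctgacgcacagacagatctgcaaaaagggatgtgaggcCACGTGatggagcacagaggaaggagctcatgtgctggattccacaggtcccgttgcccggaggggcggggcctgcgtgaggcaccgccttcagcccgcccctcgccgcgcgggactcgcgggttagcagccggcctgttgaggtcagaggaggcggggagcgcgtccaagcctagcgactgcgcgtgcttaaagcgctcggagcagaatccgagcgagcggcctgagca
Galnt9, chr5:110544105-110544404, plus strand: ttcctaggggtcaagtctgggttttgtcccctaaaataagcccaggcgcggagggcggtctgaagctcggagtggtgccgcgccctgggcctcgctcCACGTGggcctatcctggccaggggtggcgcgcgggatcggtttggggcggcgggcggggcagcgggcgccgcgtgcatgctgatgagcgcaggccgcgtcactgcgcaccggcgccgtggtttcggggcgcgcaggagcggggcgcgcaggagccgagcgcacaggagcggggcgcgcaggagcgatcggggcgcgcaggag
Tmem273, chr14:32785713-32786012, plus strand: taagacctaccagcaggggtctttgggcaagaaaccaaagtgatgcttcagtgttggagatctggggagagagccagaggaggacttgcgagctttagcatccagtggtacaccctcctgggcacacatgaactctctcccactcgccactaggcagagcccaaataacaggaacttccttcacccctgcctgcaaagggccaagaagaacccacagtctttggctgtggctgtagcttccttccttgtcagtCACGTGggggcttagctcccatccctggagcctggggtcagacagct

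Whether the KO label fell as far was measured in libraries that the rule did not use. By edgeR all 173 members were lower with LPS than with PBS in the KO-labelled cells at an adjusted p under 0.05, where 41.1% of the 12064 genes tested were lower, with a median log2 fold change of -4.02 (all genes, -0.04). The lowest of them was Engase and the least changed Trim16, at -8.24 ± 0.307 and -1.98 ± 0.131 (SE, adjusted p = 1.32e-13 and 3.65e-10). Each SE of a log2 fold change here is its size divided by the square root of the F statistic. It is approximate and can be far too narrow for falls to a few counts. The Engase ratio of 599, for example, has a counting interval of 165 to 4950. Cebpa fell from 698, 706 and 706 to 10.3, 9.39 and 9.58 CPM, by 5.37 ± 0.0815 on the log2 scale (adjusted p = 1.89e-18). Cxcr4 fell from 155, 155 and 146 to 1.58, 1.81 and 1.62 CPM, by 5.70 ± 0.0937 (adjusted p = 4e-18). No member's PBS and LPS libraries overlapped. The members' share of all counts went from 1.54% to 1.55% with PBS down to 0.057% to 0.0604% with LPS, a 26.4-fold fall of their summed CPM.

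Applied to the KO-labelled libraries alone, the rule chose 263 of 7937 genes (3.31%). The 163 shared genes were 94.2% of the WT set and 62.0% of the KO set. Of the 10 members that did not meet it, Tbc1d4, Efr3b and Sh2d1b1 were under 10 CPM in KO PBS, and Lyl1, Trim16, Tec, Sh2d3c, Dio2, Soga1 and Egr2 had ratios of 6.86 to 11.5. Of the 100 genes chosen only by the KO label, 17 were under 10 CPM in WT PBS, and the other 83 had a median WT ratio of 8.74, with 58 between 8 and 12. More than 1 in 2 of the genes chosen only by the KO label were thus close to the threshold in WT.

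The ratio was larger by the KO label than in WT for 139 members and smaller for 34 (80.3% larger) in CPM on column totals, whereas after TMM scaling the fall was deeper by the KO label for 119 and shallower for 54. Its median was 28.4 by the KO label, leaving 3.52% of the PBS level against 5.0% in WT, and the median quotient of both ratios was 1.37. The same tilt was present outside the group: among 2514 genes that fell 2 to 12 times in WT the ratio was also larger by the KO label for 80.3%, with a median quotient of 1.18, and among all genes at 10 CPM or more for 67.9%, with 1.09. The median interaction over all genes tested was -0.13 with column totals and 0.01 with TMM. Across the 173 members the log2 ratios of WT and KO label had a Pearson r of 0.822 and a Spearman coefficient of 0.808, from separate libraries but over a range that the rule had narrowed.

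**Figure D4:**
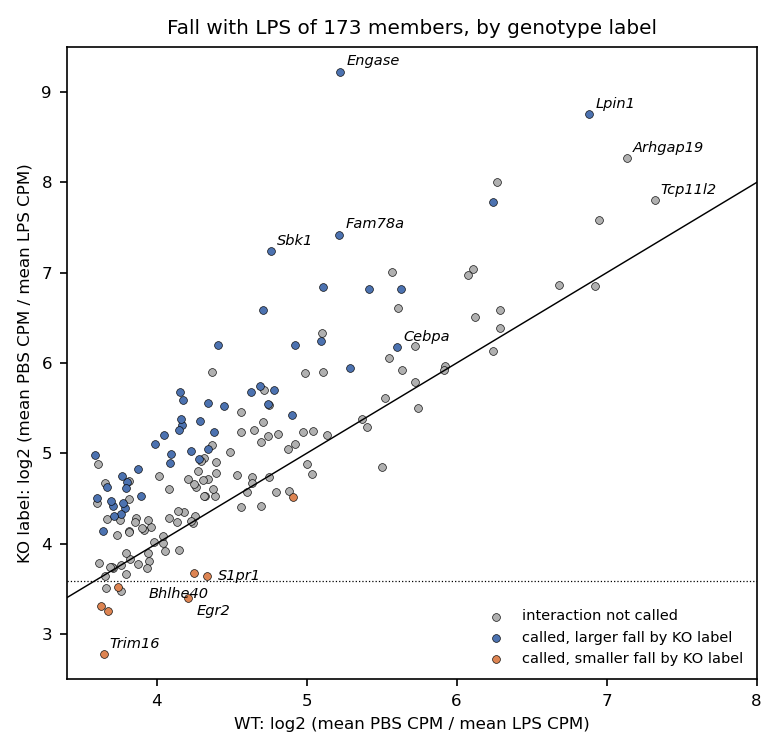
Log2 ratio of mean PBS CPM to mean LPS CPM of the 173 members in WT (x axis) and by the KO label (y axis); the solid line is equality, the dotted line the ratio of 12, and colour marks members whose interaction passed an adjusted p of 0.05 in edgeR. Blue points (50) lie above the line of equality and orange points (8) below it.

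The interaction of label and LPS, the difference between both log2 falls, passed the threshold with a deeper fall by the KO label for 50 members (28.9%) and with a shallower one for 8 (4.62%). Of all genes tested, 8.24% were negative and 9.78% positive in this sense. The median was -0.32 over the members and 0.01 over all genes. The WT arm of this difference had chosen the members, so the counts describe them and are not an independent test. With members chosen in the KO-labelled libraries instead, 107 of 263 were negative, 3 positive and the median was -0.52, but that choice used the KO arm and itself favours negative values, so it is no independent support either. Genes that fell 2 to 12 times in WT lay between members and background, with 18.0% negative, 6.25% positive and a median of -0.10. Without replicate 1 of WT LPS, 43 members were negative and 14 positive. The positive count moved with other libraries too, to 5 without replicate 1 or 3 of WT PBS, replicate 3 of WT LPS, or replicate 1 or 3 of KO PBS. No share of all genes is given for these fits, so the counts show only how the members' calls moved.

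Bhlhe40, Egr2, Trim16 and S1pr1 kept more RNA by the KO label. Bhlhe40 was at 22.5, 18.1 and 21.1 CPM in WT LPS and 37.5, 36.7 and 37.7 in KO LPS, with 397, 392 and 387 in WT PBS and 481, 479 and 468 in KO PBS. Its interaction was 0.71 ± 0.097 on the log2 scale (adjusted p = 0.000119). Egr2 was at 4.996, 4.95 and 3.01 CPM in WT LPS and 8.23, 7.54 and 8.18 in KO LPS from nearly equal PBS levels (78.6 to 82.0 in WT, 82.5 to 85.3 by the KO label), with an interaction of 0.94 ± 0.162 (adjusted p = 0.000823). Trim16, which encodes a tripartite motif protein of the ubiquitin system, was at 0.820 to 0.966 CPM in WT LPS and 1.48 to 2.18 in KO LPS, with an interaction of 1.00 ± 0.228 (adjusted p = 0.00635). S1pr1 was at 2.18, 1.75 and 1.28 CPM in WT LPS and 3.48, 3.47 and 3.33 in KO LPS, with 0.83 ± 0.226 (adjusted p = 0.0182, and 0.0703 without replicate 3 of WT LPS). In all 4 every KO LPS library was above every WT LPS library, as in 8.67% of members and 19.8% of genes at 10 CPM or more. Sh2d3c, Lyl1, Amz1 and Dio2 were the other positive members.

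The most negative interactions were in members with few counts left under LPS. Engase, an enzyme that trims glycans from proteins in the cytosol, had 11.01, 9.91 and 9.82 CPM in WT PBS and 0.182, 0.322 and 0.319 in WT LPS. By the KO label it had 16.6, 18.9 and 19.99 CPM with PBS, and 2 counts in all over the 3 LPS libraries. Its interaction of -3.70 ± 0.771 (adjusted p = 0.0035) rests on those 2 counts, and the KO ratio of 599 has a counting interval of 165 to 4950. The kinase gene Sbk1 had 5 counts in KO LPS (ratio 151, interval 64.4 to 466, interaction -2.28 ± 0.573, adjusted p = 0.0119). Lpin1 had 6 (ratio 432, interval 198 to 1180), and its interaction of -1.69 ± 0.516 (adjusted p = 0.0329) had adjusted p-values of 0.147, 0.0826 and 0.115 without replicate 1 of WT LPS, replicate 1 of KO LPS and replicate 2 of KO LPS. Fam78a was at 0.908, 0.506 and 0.729 CPM in WT LPS and 0.186, 0.236 and 0.0463 in KO LPS (-2.05 ± 0.449, adjusted p = 0.00489). Nfatc2 was at 1.32, 0.966 and 1.00 and at 0.324, 0.185 and 0.231 (-1.72 ± 0.307, adjusted p = 0.00111). For Fam78a and Nfatc2 every KO LPS library was below every WT LPS library, as in 37.6% of members and 31.3% of genes at 10 CPM or more.

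Of the 8 most abundant members, Slc43a2, Mknk2 and Cebpa had a negative interaction, Bhlhe40 a positive one, and Pdxk, Tns1, Cerk and Rab7b were not called. Slc43a2 kept 25.6, 16.3 and 17.7 CPM in WT LPS and 9.999, 11.3 and 11.3 in KO LPS, with an interaction of -1.08 ± 0.186 (adjusted p = 0.00132). Mknk2 was at 10.3, 7.77 and 9.29 and at 5.89, 5.92 and 6.62 CPM (-0.51 ± 0.123, adjusted p = 0.0091). Cebpa (-0.44 ± 0.108, adjusted p = 0.0108) differed on the PBS side, where the KO label was higher, while 9.39 to 10.3 CPM in KO LPS lay within the 8.42 to 10.6 of WT LPS. Among less abundant members, Tfeb (-0.52 ± 0.128, adjusted p = 0.0107), Pparg (-0.47 ± 0.132, adjusted p = 0.0215) and Thbd (-0.77 ± 0.16, adjusted p = 0.00333) were called as well. Pparg lost the call without replicate 3 of WT PBS (adjusted p = 0.0533), of WT LPS (0.0598) or of KO LPS (0.0701). For Arhgap18 (-0.92 ± 0.304, adjusted p = 0.0482, and 0.0623 with the replicate block), Mxd4 (-1.01 ± 0.321, adjusted p = 0.0395) and Ppfia4 (-1.24 ± 0.382, adjusted p = 0.0338) the call was lost without any 1 of 11, 9 and 6 of the 12 libraries, with adjusted p-values of up to 0.191, 0.157 and 0.121. By group, all 10 lysosomal and nutrient-sensing members had the larger ratio by the KO label and 6 a negative interaction, beside 80.3% and 28.9% of all members, and of the 23 transcription members 11 were negative and 3 positive. The groups were made after the data were seen, and no difference between them was tested.

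Under PBS the members were more often higher than lower by the KO label. By edgeR 58 (33.5%) were higher, where 12.3% of all genes tested were, and 16 (9.25%) were lower, where 13% were. Fitted to the PBS libraries alone, 74 were higher and 26 (15.0%) lower, beside 19.5% and 20.2% of the genes tested there. WT PBS had entered the rule as the high group, so these counts describe the members and are not an independent test. Among the genes that fell 2 to 12 times in WT, 15.7% were higher and 11.7% lower. All KO libraries were above all WT libraries for 106 members (61.3%, against 35.7% of genes at 10 CPM or more) and below them for 22 (12.7% against 18.9%). The differences were small: none of the 58 exceeded 1 on the log2 scale. Lpar6 was at 18.7, 22.1 and 21.2 CPM in WT and 40.7, 37.0 and 36.0 by the KO label (0.82 ± 0.0862, adjusted p = 4.5e-06), Cxcr4 at 80.6, 91.7 and 88.8 and at 155, 155 and 146 (0.75 ± 0.0609, adjusted p = 2.79e-07), Engase was higher by 0.80 ± 0.108 (adjusted p = 5.74e-05) and Nat8l, which makes N-acetylaspartate, by 0.71 ± 0.0785 (adjusted p = 8.58e-06). Cebpa was higher by 0.51 ± 0.0633 (adjusted p = 2.42e-05). In the other direction, Scd2, a stearoyl-CoA desaturase of fatty acid synthesis, was at 178, 169 and 178 CPM in WT and 61.6, 64.8 and 66.5 by the KO label (-1.49 ± 0.0913, adjusted p = 1.41e-08). Efr3b (-1.02 ± 0.0945, adjusted p = 1.28e-06), Rab3il1 (-0.76 ± 0.0651, adjusted p = 5.73e-07) and Fam198b (-0.56 ± 0.0744, adjusted p = 5.09e-05) were also lower.

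Under LPS the order turned. Of the members 52 (30.1%) were lower by the KO label, where 19.3% of all genes tested were, and 20 (11.6%) were higher, where 22.1% were. Scaled by column totals alone the split was 68 lower and 13 higher, and the median of all genes tested moved from 0.001 to -0.089. Without replicate 1 of WT LPS the split was 41 and 20. No share of all genes is given for these fits. The higher count was 13 without replicate 1 or 3 of KO LPS and 12 in a fit to the LPS libraries alone, which called 37 lower, beside 18.2% and 16.7% of the genes tested there. Genes that fell 2 to 12 times in WT were lower in 30.4% and higher in 15.8%, a share of lower calls close to that of the members. WT LPS had entered the rule as the low group. The 4 highest by the KO label were Trim16 (1.17 ± 0.205, adjusted p = 0.000282), S1pr1 (1.07 ± 0.202, adjusted p = 0.000513), Egr2 (0.97 ± 0.136, adjusted p = 3.76e-05) and Kcnj2, a potassium channel gene (0.97 ± 0.354, adjusted p = 0.0375). The Kcnj2 call was lost without any 1 of 5 of the 6 LPS libraries (adjusted p up to 0.164) and with the replicate block (0.0512). It was also lost with column totals alone (adjusted p = 0.0584), a GC correction (0.102) and a fit to the LPS libraries alone (0.0687). The 4 lowest were Engase, Sbk1, Fam78a and Nfatc2, at -2.90 to -2.04, but they held only 2, 5, 10 and 16 counts over the 3 KO LPS libraries, so their order and exact size are uncertain. Scd2 was lower here too, at 8.67, 5.86 and 5.78 CPM in WT and 3.21, 3.03 and 2.75 by the KO label (-1.08 ± 0.155, adjusted p = 4.62e-05), as was Pdxk (-0.67 ± 0.104, adjusted p = 9.36e-05). Altogether 9 members (5.2%, beside 0.638% of all genes tested) were higher by the KO label under PBS and lower under LPS, and 11 (6.36%, beside 6.46%) were lower under both.

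Summed markers of some other cells differed by label, while those of others overlapped. The summed level of 6 fibroblast markers was 95.5 to 111 CPM in WT PBS and 95.7 to 104 in WT LPS, against 43.2 to 60.6 and 43.1 to 51.7 by the KO label. That of 6 skeletal muscle markers was 22.4 to 30.1 in WT and 0.324 to 0.512 in KO LPS, and ranged from 0.463 to 26.7 among the KO PBS libraries. Of 6 resident peritoneal macrophage markers it was 10.6 to 13.7 in WT LPS and 5.55 to 6.02 in KO LPS. The T cell list was at 8.13 to 11.4 CPM in WT LPS and 3.79 to 4.21 in KO LPS, but overlapped under PBS (2.91 to 3.76 and 2.55 to 2.95). The mast cell list was higher by the KO label under LPS (0.82 to 1.15 CPM in WT and 2.13 to 2.69). Under PBS it was lower (0.818 to 1.14 in WT and 0.23 to 0.598). That sum rests on 1 gene, since Cpa3, Mcpt4, Cma1 and Tpsb2 were at or under the floor. Neutrophil and B cell sums overlapped between the labels under both treatments. Lum, of the fibroblast list, and Lyve1, of the resident list, were at or under the floor. Their part in the differences between labels was not tested.

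**Figure D5:**
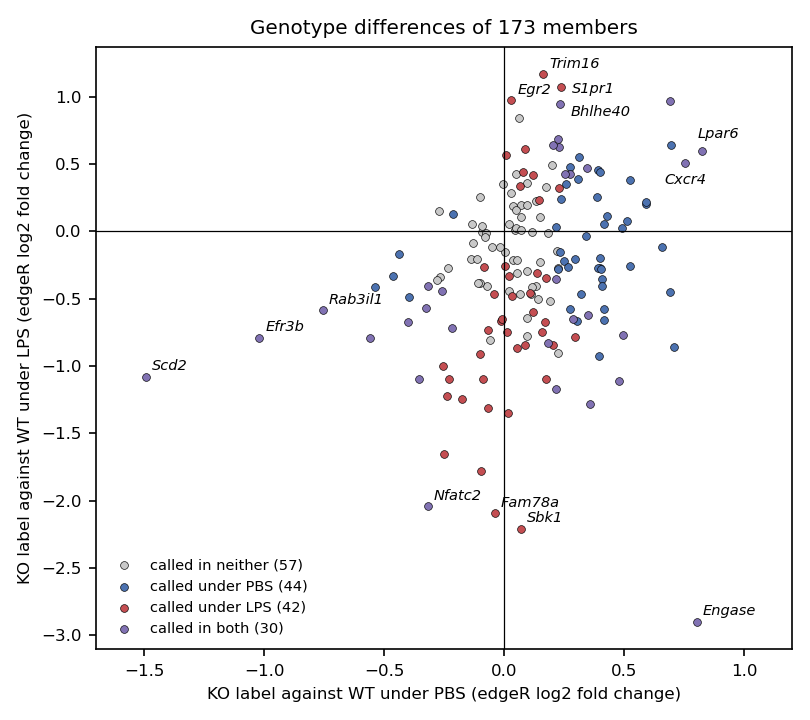
edgeR log2 fold change of the KO label against WT under PBS (x axis) and under LPS (y axis) for the 173 members; colour marks in which comparison the adjusted p was under 0.05, with the number of members. Of the 173 members, 116 (67.1%, beside 51.5% of all genes tested) were called in either comparison. Among these, 48 lie right of 0 under PBS and below 0 under LPS, 27.7% of all members beside 6.14% of all genes tested. Scd2 and Efr3b are low in both, and Trim16, S1pr1, Egr2 and Bhlhe40 high under LPS.

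The members left ungrouped had WT ratios of 12.01 to 160 (median 21.9) and KO ratios of 11.1 to 223 (median 27.0). In 36 of 45 the ratio was larger by the KO label, beside 80.3% of all members. Of the 45, 8 had a negative and 1 a positive interaction, beside 8.24% and 9.78% of all genes tested. They were Tcp11l2, Tmem273, 6430548M08Rik, Fam78a, Ppfia4, Tmem71, Efr3b, Fam198b, Fam214a, Eepd1, Gfod1, Ypel3, Abcg3, Snx29, N4bp2l1, Amz1, Tmem154, Fam83f, Snx24, Susd3, Gramd4, Ldlrad3, Paqr7, Zdhhc14, Ypel2, Tpra1, Foxred2, Tmem144, Nbeal2, Kctd12b, Appl2, Cnrip1, Otulinl, Plxdc1, Aph1c, Megf9, C2cd2l, Vegfa, Tmem65, Bsn, C77080, Fry, Soga1, Sec22c and Marveld1.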

How the data were processed

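Gene-level expected counts, as deposited by the authors in a table per library, were estimated with Bowtie2 and RSEM 1.3.1 on GRCm38.p6 per the submitters' processing notes, while the study's methods name STAR and HTSeq. They need not be whole numbers and were rounded for testing. CPM used unscaled column totals of 21546274 to 22017005. The members, lists and functional groups were chosen with earlier results of these data known. Counts of genes passing filterByExpr (12064, all members among them) were fitted over the 12 libraries with edgeR 4.0.16 (quasi-likelihood, robust, TMM scaling; R 4.3.3, limma 3.58.1), with Benjamini-Hochberg adjustment over all genes tested and a threshold of 0.05. The script was tested on simulated data. Contrasts were LPS against PBS by label, KO label against WT within each treatment, and their interaction. Members were named as the 8 highest in WT PBS, the 8 largest ratios, the 4 most extreme called members each way in the interaction and in both label comparisons, the 3 on each side of the ratio of 12, and members on a fixed list. Alternatives were other scalings and filters, DESeq2 1.42.0, a replicate block, a fit to the compared libraries alone, other thresholds, leaving out each library and, chosen after seeing the data, a GC correction. Deviations of libraries with the same replicate number correlated at -0.0618 to 0.109, so the numbers were not taken to pair samples. Ratio intervals are exact at 95% and cover counting error only. A few members and 1 gene list are not reported here.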

Additional observations from a re-analysis of the deposited data

Results flagged for a closer look

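The interaction of label and LPS, a difference between the falls in WT and by the KO label, passed the adjusted threshold in edgeR for 18 of the named members. It was positive, a shallower fall by the KO label, for Trim16 (1.001 on the log2 scale), Egr2 (0.944), S1pr1 (0.831) and Bhlhe40 (0.713). A deeper fall by the KO label was measured for Cebpa (-0.436), Pparg (-0.469), Mknk2 (-0.513), Tfeb (-0.517), Thbd (-0.773), Arhgap18 (-0.917), Mxd4 (-1.009), Slc43a2 (-1.084), Ppfia4 (-1.241), Lpin1 (-1.686), Nfatc2 (-1.722), Fam78a (-2.054), Sbk1 (-2.277) and Engase (-3.702). The last 5 had LPS levels near or under 1 CPM in both labels. The calls of S1pr1, Pparg, Arhgap18, Mxd4, Ppfia4 and Lpin1 were lost in at least 1 of the fits that left out a library. That of Mxd4 was also lost with the GC correction (edgeR, adjusted p = 0.0508).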

How the results depend on the processing

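The number of members depended on scaling and threshold: 90 genes met the rule with TMM-scaled CPM, 85 with RLE-scaled CPM and 295 at a ratio of at least 8. All 173 members were lower with LPS by the KO label under each scaling, DESeq2, the GC correction, the replicate block and without any 1 library, and under a minimum of 10 counts in every library the 125 members that remained tested were. With column totals alone the interaction was positive for 5 and its median -0.456 (-0.128 over all genes tested), and 13 members were higher by the KO label under LPS. With members chosen in the KO-labelled libraries it was positive for 3, negative for 107, and its median -0.516; that choice used the KO fall and itself favours negative values. Asking for more than 1 log2 unit left 1 positive and 18 negative interactions, 0 higher and 2 lower under PBS, and 2 higher and 19 lower under LPS. Fitted to the compared libraries alone, 26 were lower under PBS and 12 higher under LPS; the cause was not tested. Without 1 library, positive interactions numbered 5 to 14 and members higher under LPS 13 to 20. With the replicate block the counts were 8 positive and 49 negative interactions, 56 higher and 17 lower under PBS, and 17 higher and 52 lower under LPS; it ended the Kcnj2 call under LPS (adjusted p = 0.0512) and the Arhgap18 interaction (0.0623) and no other call of a named member. For the 1 log2 threshold, the fits without 1 library and the replicate block, no shares of all genes are given. Those counts show only how the members' calls moved. Own replicate numbers correlated best in 7 of 18 comparisons. No called value of a named member changed sign; 36 of 373 interaction values, 51 of 514 under LPS and 5 of 392 under PBS lost their call. Sums of 2 to 6 counts over 3 LPS libraries limit the ratios given with intervals.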
